A study of Mus musculus with 6 samples.

Results

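A group of 10 genes of inflammatory cytokines, their antagonists and their receptors were followed in bone marrow macrophages. Treatment was with the PKM2 activator DASA-58 or with DMSO, and the study's results describe RANKL in both groups. The genes were Tnf, Tnfrsf1a, Tnfrsf1b, Il1a, Il1b, Il1rn, Il1r2, Il18, Il10 and Tgfb1. They were taken by gene symbol from the expression matrix, and all 10 were found among its 23504 genes. With DASA-58, Il1rn, which encodes the IL-1 receptor antagonist, fell to 59.2% of its level in the DMSO group. Il18 and Tnfrsf1a, the gene of TNF receptor 1, rose to 119% and 109% of it, and each of these rises lost its call in 10 of 17 alternative analyses, whereas Il1rn kept it in all 17. The mRNAs of both IL-1 agonists and of the IL-1 decoy receptor were at or near the limit of detection in both groups.

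The cells were BMMs, macrophages grown from the bone marrow of male C57BL/6 mice, and they can be turned into osteoclasts by the cytokine RANKL. RNA was taken on day 3 from 3 libraries with DASA-58 and from 3 with DMSO, the solvent of the compound. DASA-58 is a small molecule that promotes the active tetramer of the glycolytic enzyme PKM2. The study's results describe RANKL in both groups, whereas the design text names RANKL for the treated cells only. Osteoclast markers were expressed in both groups and were lower with DASA-58, as given below. The use of RANKL in the DMSO group was not tested. The design text also writes DASA-48 where the sample labels write DASA-58, and no concentration is given for this experiment. Nothing says whether the replicates are separate cultures or animals, and the p-values then measure only the spread between these samples, which may be technical. As RNA was taken from whole cultures, fewer cells that make a transcript and less RNA per cell cannot be told apart.

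TNF is a membrane-bound cytokine of activated macrophages that is shed by a protease and acts through TNF receptor 1, found on most cells, and TNF receptor 2, found mainly on leukocytes. IL-1α and IL-1β act through a shared receptor, which the IL-1 receptor antagonist occupies without signalling, while the receptor encoded by Il1r2 binds the ligands as a decoy. IL-18 is made as an inactive precursor that caspase-1 cleaves, IL-10 restrains macrophage activation through STAT3, and TGF-β1 is secreted in a latent complex. In bone, TNF and IL-1 are known to favour osteoclast formation.

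Expression was deposited as FPKM, fragments scaled by gene length and library depth, which allows levels of different genes to be set side by side. Library depth, recovered from the steps in the FPKM values, was 18191560 to 18968556 fragments. Differences of log2(FPKM + 1) were tested by limma in the 10965 genes whose mean reached 1 FPKM. A gene is said to have risen or fallen where its p adjusted by the Benjamini-Hochberg method was under 0.05. Because of the added 1, such a fold change is smaller than the ratio of FPKM where a gene is at a few FPKM. The 10 macrophage markers summed to 16581 to 19864 FPKM over the 6 libraries, most of it from Lyz2 alone (14701 to 17767 FPKM). Csf1r, Lyz2, Adgre1 and Cd68 were among the 10 genes of that list that passed the filter. The osteoclast and neutrophil markers, which were also expressed, are given with Il1rn below. The summed markers of T and NK cells, of B cells, of dendritic cells and of mast cells and basophils each stayed under 2.5 FPKM in every library. The 9 stromal and osteoblast markers summed to 35.1 to 37.4 FPKM with DMSO and 35.7 to 36.6 FPKM with DASA-58, led by the collagen genes Col1a1 (22.3 ± 0.920 and 23.0 ± 0.433 FPKM) and Col1a2 (10.2 ± 0.324 and 9.87 ± 0.237 FPKM; SD, n = 3 each).

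Promoter sequences are shown for the 3 genes that rose or fell and for Tnf, since they are among the places where transcription factors of inflammation can bind. Each is the 250 bases before a RefSeq transcription start on build GRCm38.p6, printed 5′ to 3′ along the gene, and Il1rn has 3 starts, of which the windows of 2 overlap and only the more downstream of these is shown. Capitals mark matches to 3 motifs searched on both strands: GGG and CC with 5 bases of any kind between them for NF-kB, TGANTCA for AP-1 and GAGGAA for the core of PU.1.
Il1rn, upstream start, chr2:24336610-24336859, plus strand: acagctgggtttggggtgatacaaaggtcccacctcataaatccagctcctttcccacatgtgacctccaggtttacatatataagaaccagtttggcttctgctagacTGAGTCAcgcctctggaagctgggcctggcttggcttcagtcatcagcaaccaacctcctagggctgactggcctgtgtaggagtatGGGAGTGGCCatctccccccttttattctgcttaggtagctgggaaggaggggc
Il1rn, downstream start, chr2:24345121-24345370, plus strand: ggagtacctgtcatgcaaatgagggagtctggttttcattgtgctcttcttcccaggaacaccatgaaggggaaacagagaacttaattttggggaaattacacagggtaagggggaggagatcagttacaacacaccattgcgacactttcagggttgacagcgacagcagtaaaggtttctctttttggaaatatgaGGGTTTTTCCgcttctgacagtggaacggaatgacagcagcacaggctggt
Il18, chr9:50554450-50554699, plus strand: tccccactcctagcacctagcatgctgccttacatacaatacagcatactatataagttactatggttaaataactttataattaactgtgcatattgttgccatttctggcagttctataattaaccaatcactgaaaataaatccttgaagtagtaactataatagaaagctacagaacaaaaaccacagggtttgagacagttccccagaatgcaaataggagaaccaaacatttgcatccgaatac
Tnfrsf1a, chr6:125349473-125349722, plus strand: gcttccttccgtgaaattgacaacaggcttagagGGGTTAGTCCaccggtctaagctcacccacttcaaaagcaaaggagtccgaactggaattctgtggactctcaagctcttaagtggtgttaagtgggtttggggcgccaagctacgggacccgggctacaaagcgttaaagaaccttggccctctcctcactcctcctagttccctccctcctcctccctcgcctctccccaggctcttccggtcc
Tnf, chr17:35202008-35202257, minus strand: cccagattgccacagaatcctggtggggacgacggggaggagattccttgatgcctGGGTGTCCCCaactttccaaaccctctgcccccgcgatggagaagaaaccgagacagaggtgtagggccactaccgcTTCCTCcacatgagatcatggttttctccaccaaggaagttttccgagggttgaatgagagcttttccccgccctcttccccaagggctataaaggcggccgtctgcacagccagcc
The upstream start of Il1rn held an AP-1 match 141 to 135 bases before the start and an NF-kB match at 54 to 45 bases. The downstream start held an NF-kB match at 51 to 42 bases, while the Il1rn start that is not shown held no match to any of the 3 motifs. Tnfrsf1a held an NF-kB match at 216 to 207 bases, and Tnf held an NF-kB match at 194 to 185 bases and a PU.1 match at 117 to 112 bases. The Il18 window held none of these letters. The Tnfrsf1a window and the downstream Il1rn window lie inside the gene spans given below, which are from another annotation than the starts. The Il18 window ends at 50554699, before the span of Il18 begins at 50554827. These short motifs are common, since 45.8% of 32851 promoters of this length held the NF-kB motif, 6.75% the AP-1 motif and 23.3% the PU.1 core. Among the 11 windows of the 9 genes with an entry, 6 held the NF-kB motif, 2 the AP-1 motif and 3 the PU.1 core. A match is a description of the sequence and not a site of binding.

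Of the 10 genes, 7 passed the filter on low values, and of these 1 fell, 2 rose and 4 did not pass the test. Over all 10965 genes tested, 7.28% fell and 4.24% rose. The 3 libraries of a group did not overlap with the 3 of the other for 6 of the 7 genes, with 1 lower and 5 higher with DASA-58, while 21.6% of all genes tested were lower without overlap and 11.8% were higher (33.4% together). The median log2 fold change was 0.14 over the 7 genes and -0.03 over all genes tested. The direction of the calls over all genes depended on the scaling: 63.2% of them were lower with DASA-58 as deposited, 49.5% after quantile normalization, 45.8% after centring each library on its median and 71.3% with equal library totals. For the 7 genes the direction was the same under each of these scalings. With 3 libraries against 3, an exact permutation test cannot give a p under 0.10, and that value was reached by the 6 genes without overlap.

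**Figure D1:**
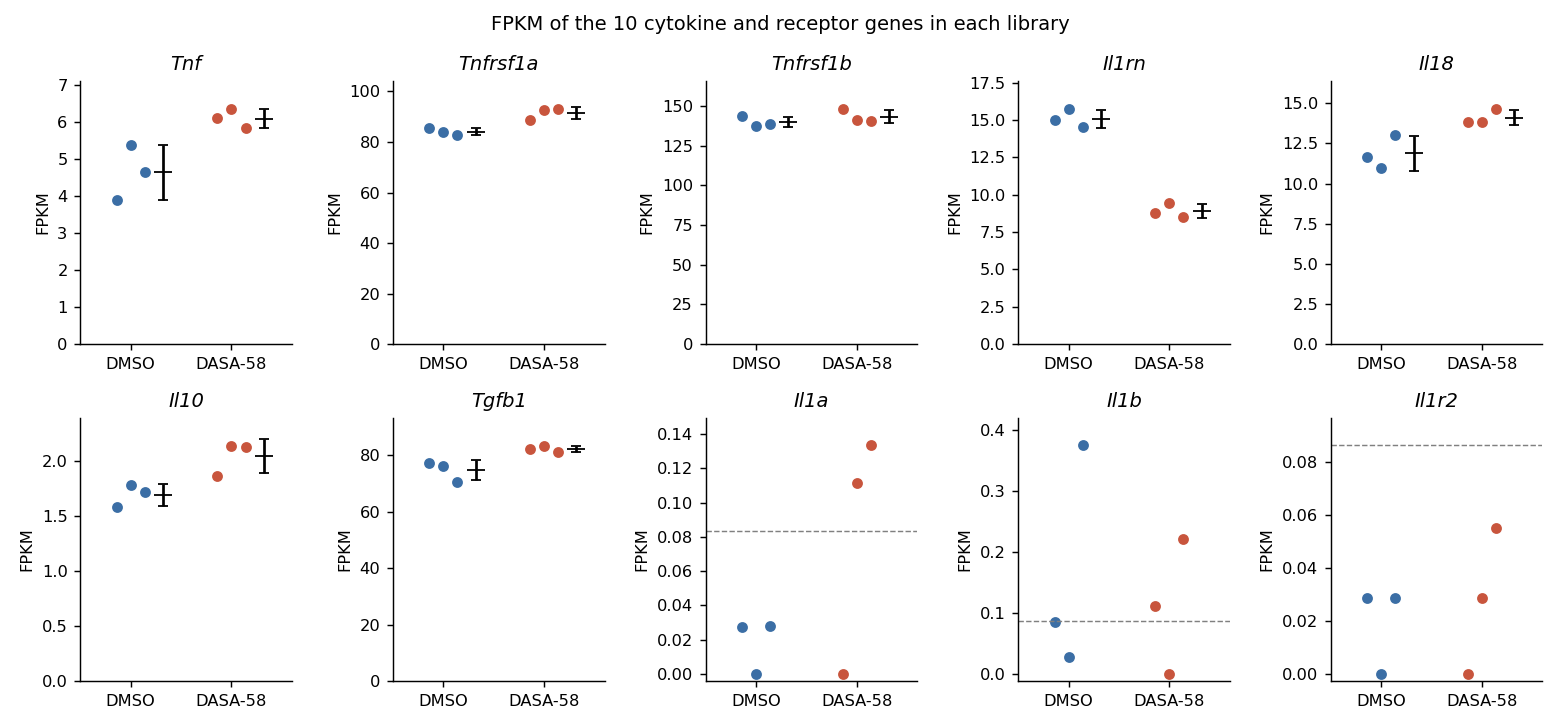
FPKM of the 10 genes (vertical axes, each with its own scale) in the 3 DMSO and 3 DASA-58 libraries, where points are libraries, and bars give the mean ± SD for the 7 genes that passed the filter. The dashed line marks the level of 3 fragments, shown for Il1a, Il1b and Il1r2; the DASA-58 libraries lay below every DMSO library for Il1rn and above every one for Tnf, Tnfrsf1a, Il18, Il10 and Tgfb1.

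Il1rn encodes the secreted and intracellular forms of the IL-1 receptor antagonist (ENSMUSG00000026981, chr2:24336853-24351494 of GRCm38, plus strand). Its level was 15.0, 15.7 and 14.5 FPKM in DMSO replicates 1, 2 and 3, and 8.76, 9.45 and 8.53 FPKM in DASA-58 replicates 1, 2 and 3. All 3 treated libraries lay below all 3 controls, and the gap between the groups was several times the spread within either. The mean went from 15.1 ± 0.606 to 8.92 ± 0.480 FPKM (SD, n = 3 each), a log2 fold change of -0.70 (SE 0.049, 95% interval -0.81 to -0.58, limma adjusted p = 0.00021). It rested on 1463 to 1640 fragments per DMSO library and 896 to 952 per DASA-58 library, for which counting alone gives an SD of 2.55% and 3.30%, beside observed SDs of 4.02% and 5.38%. Il1rn passed the test in all 17 alternative analyses, with log2 fold changes between -0.76 and -0.53. The table gives 1 value per gene, so the secreted and intracellular transcripts were not separated.

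Osteoclast markers fell as Il1rn did, neutrophil markers moved in both directions, and most macrophage markers were higher with DASA-58. Of 10 osteoclast markers, 9 passed the filter and all 9 fell, and their summed level went from 778 to 833 FPKM with DMSO to 449 to 467 FPKM with DASA-58. Their log2 fold changes ran from -0.95 to -0.45, and that of Il1rn lay within this range. Of 12 neutrophil markers, 10 passed the filter, of which 4 fell (Ngp, S100a9, Camp and S100a8) and 1 rose (Mmp8). Their sum went from 185 to 190.2 FPKM to 152 to 158 FPKM, with the defining marker Ly6g at 0 or 1 fragment in each library. Of the 10 macrophage markers, 5 rose and 1, Cd14, fell, beside 7.28% of all genes tested that fell and 4.24% that rose. The log2 fold changes of these 10 markers had a median of 0.17 and ran from -0.15 to 0.38. The part of these cell types in the change of Il1rn, or in the higher levels of the other cytokine and receptor genes, was not tested.

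The agonists that this antagonist competes with were barely expressed. Il1a (ENSMUSG00000027399, chr2:129299610-129309972, minus strand), the gene of IL-1α, was counted at 1, 0 and 1 fragments across the DMSO replicates in order, against 0, 4 and 5 across those with DASA-58. The 3-fragment level that a count of 0 allows is 0.0801 to 0.0835 FPKM for this gene, and only DASA-58 replicates 2 and 3, at 0.111 and 0.134 FPKM, lay above it. The sums were 2 fragments (exact Poisson 95% interval 0.242 to 7.22) and 9 fragments (4.12 to 17.1), with a depth-adjusted ratio of 4.45 and an interval of 0.922 to 42.4 that covers counting error only. The groups overlapped (exact permutation p = 0.4, n = 3 each).

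Il1b (ENSMUSG00000027398, chr2:129364570-129371139, minus strand), the gene of IL-1β, had 3, 1 and 13 fragments with DMSO, and 4, 0 and 8 with DASA-58. In FPKM these were 0.0857, 0.0278 and 0.374 with DMSO, and 0.111, 0 and 0.221 with DASA-58. The highest library was DMSO replicate 3 and the groups overlapped (exact permutation p = 0.7, n = 3 each). The ratio of the summed fragments was 0.699, with a counting interval of 0.304 to 1.55, and the sign of the difference turned without DMSO replicate 3 or DASA-58 replicate 2. Il1r2 (ENSMUSG00000026073, chr1:40074079-40125231, plus strand), the decoy receptor, had 1, 0 and 1 fragments with DMSO, and 0, 1 and 2 with DASA-58. Every library was under the 3-fragment level of 0.0829 to 0.0864 FPKM, so no difference was detectable at this depth and no fold is given. Il1a, Il1b and Il1r2 each overlap a gene on the opposite strand (Gm14023, Il1bos and Gm16894, at most 0.0926, 0.0178 and 0.188 FPKM). As the use of strand in counting is not stated, reads in the overlaps may have been given to either gene or left out. Without the filter, where 2.68% of all 23504 genes passed, the limma adjusted p was 0.52 for Il1a, 0.86 for Il1b and 0.86 for Il1r2.

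Set beside each other on the length-scaled FPKM, the antagonist exceeded both agonists together in every library. The sum of Il1a and Il1b was 0.113, 0.0278 and 0.402 FPKM with DMSO, and 0.111, 0.111 and 0.355 FPKM with DASA-58, while Il1rn did not go below 8.53 FPKM. The agonist sum overlapped between the groups.

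Tnf (ENSMUSG00000024401, chr17:35199381-35202007, minus strand) was at 3.89, 5.37 and 4.66 FPKM in DMSO replicates 1, 2 and 3, and at 6.09, 6.34 and 5.82 FPKM in DASA-58 replicates 1, 2 and 3. Every treated library lay above every control, although DASA-58 replicate 3 and DMSO replicate 2 were close. The means were 4.64 ± 0.741 and 6.08 ± 0.259 FPKM (SD, n = 3 each), with a log2 fold change of 0.34 (SE 0.091, 95% interval 0.12 to 0.55). The difference did not pass the test (limma adjusted p = 0.054). Tnf rested on 117 to 166 fragments per DMSO library and 181 to 189 per DASA-58 library. The observed SD of the DMSO group was 16.0% where counting alone gives 8.43%, whereas that of the DASA-58 group was 4.25% where counting gives 7.33%. Tnf passed the test in 4 of 17 alternatives, among them the fit without DMSO replicate 2 (adjusted p = 0.020).

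Both TNF receptors were expressed far above their ligand. Tnfrsf1a (ENSMUSG00000030341, chr6:125349362-125362484, plus strand) was at 85.4, 84.0 and 82.8 FPKM with DMSO, and at 88.7, 92.7 and 93.0 FPKM with DASA-58. The groups did not overlap, and the means were 84.1 ± 1.32 and 91.5 ± 2.37 FPKM (SD, n = 3 each). The log2 fold change was 0.12 (SE 0.029, 95% interval 0.052 to 0.19, limma adjusted p = 0.038) on 3907 to 4569 fragments per library. This small rise lost the call in 10 of 17 alternatives, and of the 6 fits that left out 1 library it passed only without DASA-58 replicate 1 (adjusted p 0.045 to 0.13 over the 6).

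Tnfrsf1b (ENSMUSG00000028599, chr4:145213463-145246870, minus strand), the gene of TNF receptor 2, was at 143, 137 and 139 FPKM with DMSO, and at 148, 141 and 140.5 FPKM with DASA-58. The groups overlapped and the means were 139.8 ± 3.16 and 143 ± 4.05 FPKM (SD, n = 3 each). The log2 fold change of 0.03 did not pass the test (95% interval -0.04 to 0.11, limma adjusted p = 0.52), and with 9650 to 10629 fragments per library counting alone gives an SD of about 1.01% of the DMSO mean. Within each library Tnfrsf1b exceeded Tnfrsf1a, by 1.68, 1.63 and 1.68 times with DMSO and by 1.67, 1.52 and 1.51 times with DASA-58. The ratio of DASA-58 replicate 1 lay among the DMSO values, and whether the receptors differed in their response was not tested. The ratio of Il1rn to Tnf was 3.85, 2.93 and 3.12 with DMSO, and 1.44, 1.49 and 1.47 with DASA-58. It combines the fall of Il1rn with a difference of Tnf that did not pass the test. The products of these genes act on different receptors, and the ratio itself was not tested.

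Il18 (ENSMUSG00000039217, chr9:50554827-50581840, plus strand) was at 11.6, 11.0 and 13.1 FPKM with DMSO, and at 13.9, 13.8 and 14.6 FPKM with DASA-58. The treated libraries were higher without overlap, with means of 11.9 ± 1.07 and 14.1 ± 0.457 FPKM (SD, n = 3 each). The log2 fold change was 0.23 (SE 0.061, 95% interval 0.091 to 0.37, limma adjusted p = 0.048). Il18 rested on 213 to 286 fragments per library. Counting alone gives an SD of 6.65% with DMSO and 6.07% with DASA-58, beside observed SDs of 8.99% and 3.24%. Il18 overlaps Bco2 and Tex12 on the opposite strand, which reached at most 1.24 and 0.0522 FPKM. The call was lost in 10 of 17 alternatives, and of the 6 fits that left out 1 library it passed only without DMSO replicate 3 (adjusted p 0.015 to 0.14 over the 6). The ratio of Il18 to Il18bp, the gene of the soluble IL-18 antagonist, was 6.66, 5.84 and 8.88 with DMSO, and 6.81, 6.13 and 7.63 with DASA-58, so that the groups overlapped.

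Of the anti-inflammatory cytokines, Il10 (ENSMUSG00000016529, chr1:131019845-131024974, plus strand) was at 1.58, 1.78 and 1.72 FPKM with DMSO, and at 1.86, 2.14 and 2.13 FPKM with DASA-58. All treated libraries were above all controls, with means of 1.69 ± 0.103 and 2.05 ± 0.157 FPKM (SD, n = 3 each). The log2 fold change of 0.18 did not pass the test (95% interval 0.012 to 0.34, limma adjusted p = 0.15). With only 38 to 53 fragments per library, counting alone gives an SD of 15.6% with DMSO and 14.1% with DASA-58, which is more than the observed 6.06% and 7.67%.

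Tgfb1 (ENSMUSG00000002603, chr7:25687002-25705077, plus strand) was at 77.3, 76.2 and 70.6 FPKM with DMSO, and at 82.2, 83.4 and 81.0 FPKM with DASA-58. The groups did not overlap, and the lowest library was DMSO replicate 3. The means were 74.7 ± 3.59 and 82.2 ± 1.16 FPKM (SD, n = 3 each), and the log2 fold change of 0.14 did not pass the test (SE 0.038, 95% interval 0.048 to 0.22, limma adjusted p = 0.059). Tgfb1 passed in 4 of 17 alternatives and in none of the 6 that left out 1 library. Ordered by their DMSO mean, the 7 genes above the filter were Tnfrsf1b, Tnfrsf1a, Tgfb1, Il1rn, Il18, Tnf and Il10. With DASA-58 Il18 stood above Il1rn, and the other places were unchanged.

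**Figure D2:**
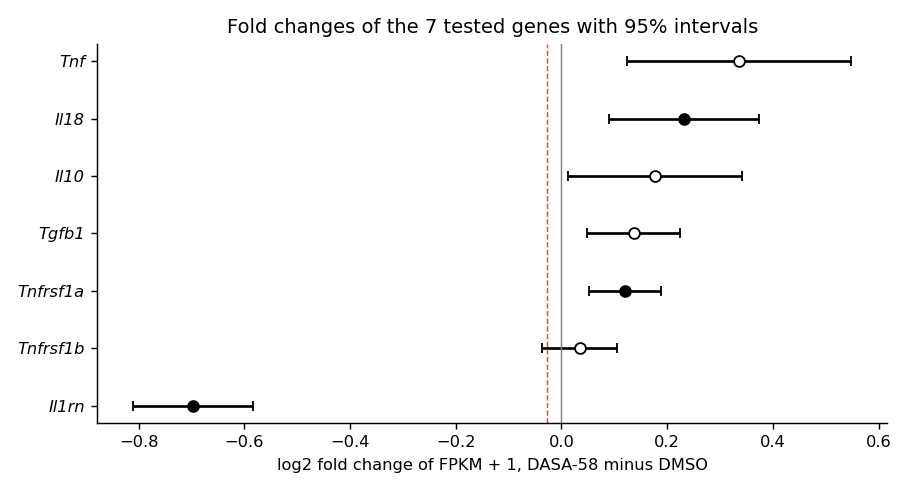
Log2 fold change of FPKM + 1 (DASA-58 minus DMSO, horizontal axis) of the 7 genes that passed the filter, with the 95% interval of the limma fit. Filled points passed at an adjusted p under 0.05 and the dashed line is the median of all genes tested (-0.03); Il1rn is the only gene on the lower side.

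The genes whose profile over the 6 libraries was most like that of each gene called were found by the root mean square difference of log2(FPKM + 1) centred on the mean of each gene. For Il1rn these were Myo1d (difference 0.0559), an unconventional myosin, and Cyp2s1 (0.0572), a cytochrome P450. Myo1d went from 3.17 ± 0.0788 to 1.64 ± 0.211 FPKM. For Il18 they were Ldlrad3 (0.0213) and Iqgap2 (0.0299), and for Tnfrsf1a they were Treml2 (0.0107) and the nucleotide receptor gene P2ry2 (0.0164). Of the last 4 genes only Iqgap2 passed the test itself (log2 fold change 0.21, limma adjusted p = 0.034).

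The genes around these cytokines were taken from 9 lists with 121 genes, of which 115 were found by name, 86 were tested, 11 fell and 5 rose, beside 7.28% and 4.24% of all genes tested. Of the 15 genes of the inflammasome and of cytokine release, which process and release IL-1β and IL-18, 2 fell and 1 rose. Gsdmd, whose cleaved product forms the pores through which both cytokines leave, fell from 192 ± 0.408 to 147 ± 1.24 FPKM (SD, n = 3 each; log2 fold change -0.38, limma adjusted p = 8.9e-05). Mefv, the gene of the pyrin sensor, fell from 22.6 ± 1.87 to 18.9 ± 0.515 FPKM, and Ninj1, which ruptures the membrane of dying cells, rose from 319.8 ± 17.9 to 365 ± 10.4 FPKM. Of 12 adaptors and kinases of the IL-1 receptor only Irak3, a negative regulator of this pathway, passed, rising from 14.6 ± 0.356 to 17.0 ± 0.627 FPKM. In the lists of the other IL-1 family ligands and of the other IL-1 family receptors, 1 gene each was tested and neither passed.

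Of 20 genes of TNF release and receptor signalling, 3 fell and 0 rose by limma: Tnip1, which restrains NF-kB (46.4 ± 0.811 to 39.5 ± 0.725 FPKM), Ripk3, a kinase of necroptosis (49.2 ± 0.893 to 44.7 ± 0.955 FPKM), and Birc2, a ubiquitin ligase of the receptor complex (9.99 ± 0.536 to 8.64 ± 0.295 FPKM). Of 9 factors of cytokine mRNA decay, Zfp36, which destabilises Tnf mRNA, fell from 28.3 ± 0.476 to 24.0 ± 1.37 FPKM, Khsrp fell from 47.3 ± 2.04 to 42.6 ± 0.232 FPKM, and Zfp36l2, a relative of Zfp36, rose from 86.4 ± 4.38 to 99.3 ± 1.97 FPKM. Of the 7 genes of the IL-10 receptor and STAT3 arm, Socs3, a feedback inhibitor of cytokine receptors, fell from 7.19 ± 0.465 to 4.51 ± 0.300 FPKM (log2 fold change -0.57, limma adjusted p = 0.0013), and Sbno2 fell from 29.2 ± 0.279 to 24.0 ± 0.754 FPKM. Of 14 tested genes of TGF-β activation and signalling, Itgav, an integrin subunit that activates latent TGF-β, fell from 15.1 ± 1.05 to 10.9 ± 0.280 FPKM and Nrros, which anchors it on myeloid cells, rose from 63.3 ± 1.90 to 71.0 ± 0.611 FPKM. Of 7 other cytokine genes tested, Mif fell from 332 ± 16.4 to 282 ± 3.58 FPKM and Ebi3, a subunit of IL-27, rose from 27.3 ± 0.836 to 33.7 ± 2.46 FPKM. The medians of the 7 lists with more than 1 tested gene lay between -0.06 and 0.20, beside -0.03 for all genes tested.

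**Figure D3:**
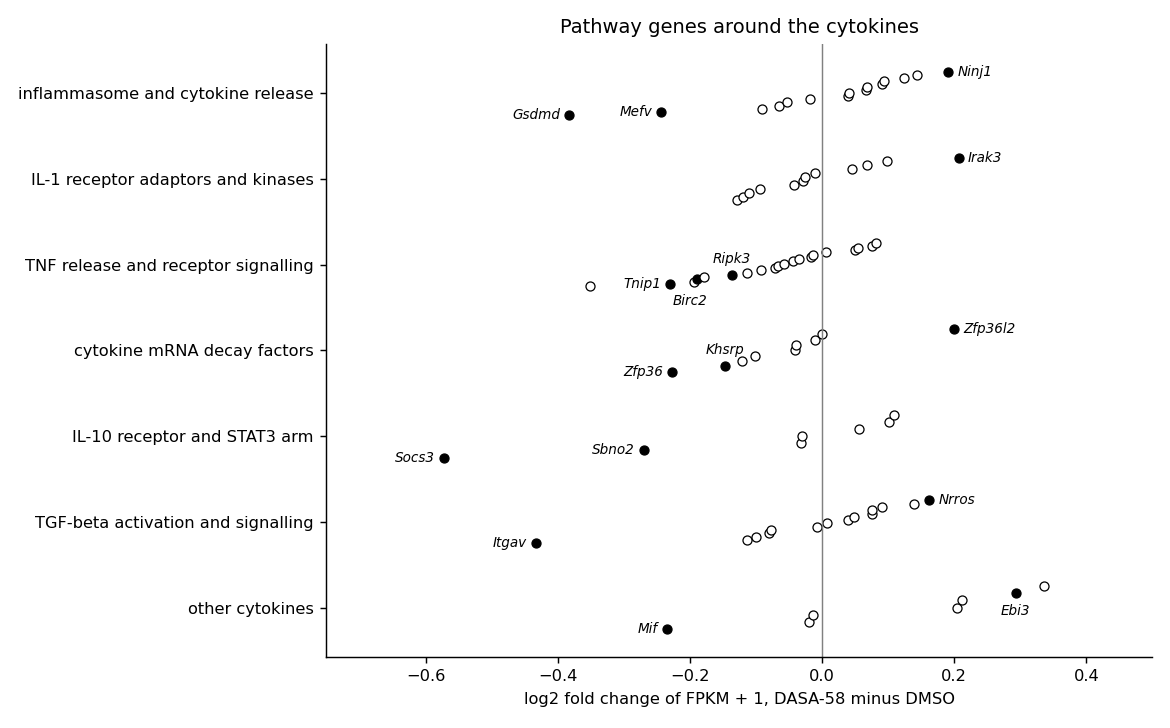
Log2 fold change of FPKM + 1 (DASA-58 minus DMSO, horizontal axis) of each tested gene in 7 lists around the cytokines, 1 row per list and spread vertically for display. Filled, named points passed at an adjusted p under 0.05; Socs3, Itgav and Gsdmd lie farthest to the lower side among these.

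**Figure D4:**
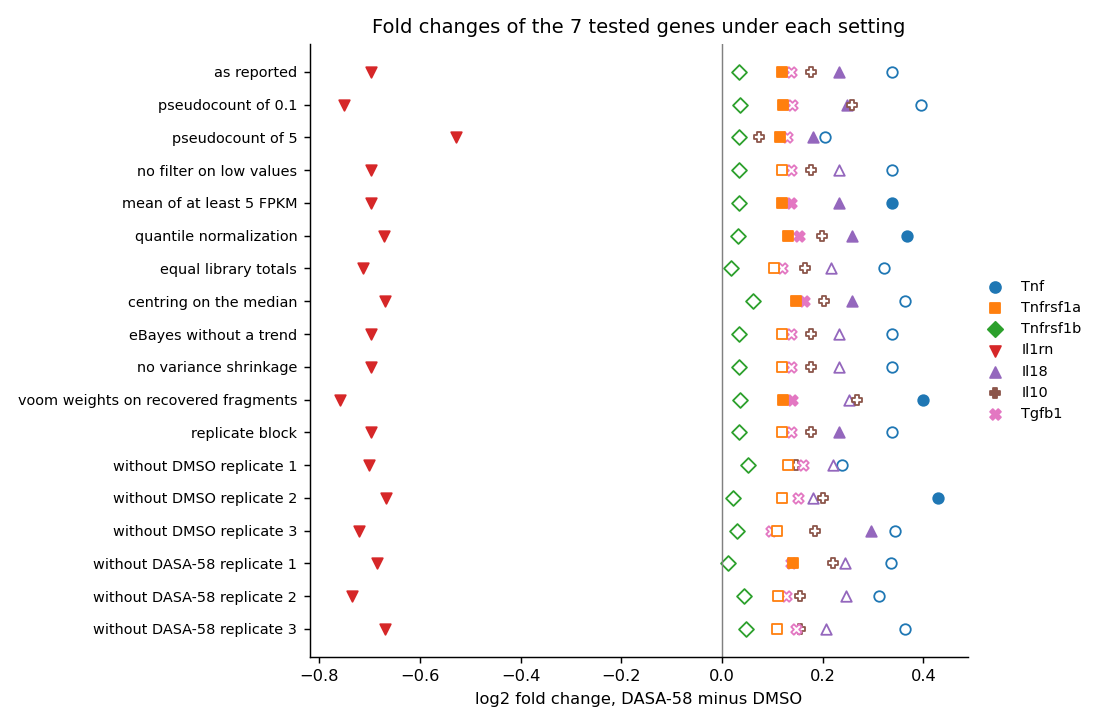
Log2 fold change (DASA-58 minus DMSO, horizontal axis) of the 7 tested genes in the reported fit and in each alternative analysis (rows), except Il10 under the filter at a mean of 5 FPKM, which it did not pass; filled points passed at an adjusted p under 0.05. Il1rn is filled in all rows, and Tnfrsf1b and Il10 in none.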

How the data were processed

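The authors deposited FPKM values of 23504 genes for 6 libraries (3 DMSO, 3 DASA-58). The submitters' processing notes name HISAT2 2.1.0, HTSeq 0.6.0 and the build mm8 without their roles, and the annotation and use of strand are not given in the sources used here. With exon lengths of GENCODE M21 (GRCm38), whose coordinates are printed, 90.9% of genes gave whole fragments in all libraries, within 0.02 fragments. This gave the depth and counting error. Symbols were matched for 23455 identifiers.

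log2(FPKM + 1) was compared with limma 3.58.1 (R 4.3.3, lmFit and eBayes with a trend) over the 10965 genes whose mean reached 1 FPKM, with Benjamini-Hochberg adjustment. Two-sided exact permutation tests used SciPy 1.17.1. Intervals and the 3-fragment level cover counting error only. The fit was run on simulated data with the same dispersion for every gene. The changes planted there were larger than those of Tnf, Il18 and Tnfrsf1a, so that run does not cover changes of their size. The 10 genes and all lists were chosen with earlier results of these data known. The rule for named genes took the 10 genes, up to 3 genes with the smallest p among those called in each list, and the 2 genes most like each called gene. Alternatives were pseudocounts of 0.1 and 5, no filter or a filter at a mean of 5 FPKM, quantile normalization, equal totals, median centring, other variance models, voom on recovered fragments, a replicate block and each library left out.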

Additional observations from a re-analysis of the deposited data

How the results depend on the processing

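Of the 7 tested cytokine and receptor genes, 6 kept their direction in 17 alternatives and Il10 in 16, since its mean lay under the filter at 5 FPKM. Il1rn was the 1 gene called lower in each. The count of these genes called higher, 2 as reported, was 0 without the filter on low values, with equal library totals, with eBayes without a trend and without variance shrinkage, 1 with the replicate block, 3 after centring on the median and with voom weights on recovered fragments, and 4 with a mean of at least 5 FPKM and after quantile normalization. It was 0 to 1 when 1 library was left out. Over all genes, 798 were lower and 465 higher as reported, beside 372 and 257 without the filter, 314 and 227 without variance shrinkage, 515 lower without a trend and 504 lower after centring. Leaving out 1 library gave 387 to 603 lower and 272 to 375 higher, with the fewest lower without DMSO replicate 1 and the fewest higher without DASA-58 replicate 1. The causes were not tested. Whether same-numbered libraries were set up together is not stated. They correlated at -0.015, 0.016 and -0.016 in their deviations from the group means, beside -0.046 to 0.061 for libraries of different numbers. With 3 libraries per group these values cannot show whether the libraries were paired. The replicate block gave 579 lower and 378 higher genes, and with it Tnfrsf1a lost its call (limma adjusted p = 0.085). Depth limits Il1a, Il1b and Il1r2, at 0 to 13 fragments per library.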

Other observations

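Some cytokine genes of the lists lay under the filter on low values and were named after their values were seen. Lta and Ltb, which encode the lymphotoxins, lie on either side of Tnf on chromosome 17. Lta was counted at 4, 2 and 2 fragments with DMSO and at 0 in each library with DASA-58, a level too low for a comparison. Ltb had 27, 36 and 21 fragments with DMSO and 21, 19 and 14 with DASA-58, at 0.997 ± 0.250 and 0.637 ± 0.132 FPKM (SD, n = 3 each), and it did not pass limma without the filter (adjusted p = 0.32). Lif, a cytokine of the IL-6 family that signals through STAT3, had 34, 23 and 28 fragments with DMSO and 11, 15 and 15 with DASA-58, at 0.353 ± 0.0728 and 0.169 ± 0.0299 FPKM without overlap (limma adjusted p = 0.10 without the filter). Il6 itself had at most 3 fragments in any library and Il12b at most 5.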
